A study of Mus musculus with 32 samples.

Results

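Matrix metalloproteinases (MMPs), ADAMTS proteases and their tissue inhibitors (TIMPs) were followed in whole tumors of 32 mice. The members were every gene whose symbol is Mmp, Adamts or Timp followed by its number, with the letter a or b allowed for the MMPs and numbers 1 to 4 for the TIMPs. This gave 40 of the 39676 genes in the count table, of which 21 were MMPs, 15 ADAMTS proteases and 4 TIMPs. Some genes of these families, such as Adamts5, Adamts12 and Mmp19, had no row in the table, so sums and ranks leave them out. The table held 6 of 7 listed proteoglycan-cutting ADAMTS, 6 of 9 other ADAMTS, 5 of 6 membrane-bound MMPs and 5 of 6 other MMPs. Tumors were grown from 2 untreated murine mesothelioma cell lines, AB1 in BALB/c mice (500000 cells) and AE17 in C57BL/6 mice (1000000 cells). Each line was placed either in the pleural cavity (intrapleural, IPL) or under the skin (subcutaneous, SC), which gives 4 groups of 8 mice. All mice were female and, by the study's methods, 8 to 10 weeks old. All tumors were taken on day 10 with the tissue around them. That tissue, at the IPL site with the lungs, was removed afterwards. Each model is 1 cell line in 1 mouse strain at 1 cell number, so these cannot be told apart in a comparison of the models. The comparison of the sites asks which of these genes differ when the same cells grow in the pleural cavity, where mesothelioma arises, and under the skin.

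MMPs are zinc enzymes that are made as inactive proenzymes and cut collagens, elastin, proteoglycans and many secreted proteins once their propeptide is removed. ADAMTS proteases are secreted relatives with thrombospondin repeats that cut proteoglycans such as aggrecan and versican, or trim procollagens. TIMPs bind the active site of these enzymes and block it. In tumors the enzymes come from the cancer cells as well as from fibroblasts, macrophages and neutrophils, and a whole-tumor library holds all of them. In such bulk samples fewer cells of a type and less RNA per cell cannot be told apart.

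Of the 40 members, 10 lay together on chromosome 9 between bases 7272514 and 7699585 (GRCm38), a span of 427.1 kb. In order along the chromosome these were Mmp13, Mmp12, Mmp1b, Mmp3, Mmp1a, Mmp10, Mmp8, Mmp27, Mmp20 and Mmp7, and the largest site differences among the members tested were found here. The promoters of the cluster genes that moved are shown because AP-1, a factor that responds to growth factors and inflammation, is a textbook activator of this cluster. Each line holds the 250 bases before the start of 1 RefSeq transcript (GRCm38.p6), 5′ to 3′, and capitals mark the AP-1 motif TGANTCA, which reads the same on both strands.
Mmp13, chr9:7272264-7272513, plus strand: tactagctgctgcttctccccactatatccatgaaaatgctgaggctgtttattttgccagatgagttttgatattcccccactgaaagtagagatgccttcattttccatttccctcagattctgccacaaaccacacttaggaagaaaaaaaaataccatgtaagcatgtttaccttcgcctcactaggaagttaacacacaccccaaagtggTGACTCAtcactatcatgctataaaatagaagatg
Mmp12, chr9:7347124-7347373, plus strand: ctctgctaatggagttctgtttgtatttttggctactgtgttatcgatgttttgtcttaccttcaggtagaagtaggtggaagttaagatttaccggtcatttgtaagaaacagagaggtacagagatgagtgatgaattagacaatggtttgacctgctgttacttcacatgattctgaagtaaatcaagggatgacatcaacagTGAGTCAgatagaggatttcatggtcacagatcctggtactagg
Mmp3, chr9:7445572-7445821, plus strand: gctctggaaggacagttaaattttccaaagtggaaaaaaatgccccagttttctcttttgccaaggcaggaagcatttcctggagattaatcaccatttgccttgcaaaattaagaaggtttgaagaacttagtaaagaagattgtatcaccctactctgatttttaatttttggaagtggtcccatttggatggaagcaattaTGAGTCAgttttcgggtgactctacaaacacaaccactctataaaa
Mmp10, chr9:7502092-7502341, plus strand: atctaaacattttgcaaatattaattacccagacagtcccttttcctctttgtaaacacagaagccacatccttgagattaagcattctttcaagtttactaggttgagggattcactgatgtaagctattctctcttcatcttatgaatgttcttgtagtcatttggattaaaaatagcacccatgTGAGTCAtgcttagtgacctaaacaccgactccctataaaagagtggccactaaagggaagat
Mmp27, chr9:7571146-7571395, plus strand: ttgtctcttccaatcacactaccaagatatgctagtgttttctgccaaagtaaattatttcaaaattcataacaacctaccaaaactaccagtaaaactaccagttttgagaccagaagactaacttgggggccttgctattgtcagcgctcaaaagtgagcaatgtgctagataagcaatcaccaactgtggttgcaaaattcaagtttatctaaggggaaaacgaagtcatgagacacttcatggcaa
The motif began 35 bases before the start of Mmp13, 44 before Mmp12, 46 before Mmp3 and 63 before Mmp10. No match was found in the window of Mmp27, nor in a second window of Mmp12 that starts further upstream. RefSeq windows were matched for 30 of the 40 members (33 windows). AP-1 matches were found in 8 of the 33, which is 24.2% beside 6.75% of all 32851 windows, and the 8 genes (Mmp1a, Mmp1b, Mmp3, Mmp7, Mmp10, Mmp12, Mmp13 and Mmp20) all lay in the cluster. The motif was thus present in genes that were higher, in genes that were lower and in genes that were hardly detected. A TATA box and a RUNX motif were counted as well on both strands, and in the windows of the members no match overlapped an AP-1 match. The TATA box TATAAA was found in 9 windows (27.3%, beside 12.4% of all) and the RUNX motif AACCACA in 3 (9.09%, beside 4.4%), those of Mmp7, Mmp13 and Mmp27.

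Total counts per mouse ranged from 15432258 to 20649645 (median 17230191), and levels are given as CPM, the counts of a gene scaled to a common library size. A count of 3, taken as the smallest detectable number, corresponded to between 0.14 and 0.189 CPM and covers counting error only. Libraries were run in 3 lanes that nearly follow the groups: all 8 AB1 IPL mice were in lane 3 with 2 AB1 SC mice, the other 6 AB1 SC mice in lane 2 with 5 AE17 IPL mice, and all 8 AE17 SC mice in lane 1 with 3 AE17 IPL mice. For this reason the text also gives values within the lane that holds both sites, lane 3 for AB1 and lane 1 for AE17. Of 8 mesothelial markers 5 were in the table, among them Upk3b and Wt1, with sums between 0.304 and 77.5 CPM. The median sum was 1.40 CPM in AB1 IPL, 1.94 in AB1 SC, 10.6 in AE17 IPL and 3.01 in AE17 SC tumors. Between the sites DESeq2 called Lrrn4, Upk3b and Wt1 in AE17 and Calb2 and Upk3b in AB1. EdgeR tested 1 of these markers in each model and did not call it. Summed fibroblast markers were between 11233 and 35696 CPM and summed macrophage markers between 1607 and 3337 CPM. AB1 IPL tumor 2 held the highest value of its group in 15 of the 24 members tested in AB1, together with the highest fibroblast sum (35696 CPM, group median 19765) and mesothelial sum (77.5 CPM, group median 1.40). Other mice at the edge of their group in 10 or more members were AB1 SC tumor 6 (highest in 10 of 24), AB1 IPL tumor 8 (lowest in 10 of 24), AE17 SC tumor 8 (lowest in 13 of 28), AE17 SC tumor 6 (highest in 12 of 28) and AE17 IPL tumor 5 (highest in 10 of 28).

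Per length, inhibitors and a few MMPs dominated. The level of each member was divided by its exon length and averaged over the medians of the 4 groups. Timp1 was highest with 252 CPM per kb, followed by Timp2 (155), Mmp14 (92.8), Mmp2 (79.8) and Mmp3 (40.4). Mmp9 (19.6), Mmp11 (19.5), Mmp13 (17.9), Adamts1 (16.4) and Adamts14 (16.04) came next. The ranges over mice of neighbours in this order overlapped in at least 1 group for each pair, for Mmp14 and Mmp2 in 3 of the 4 groups and for Adamts1 and Adamts14 in all 4. Summed over the 21 MMPs, the median per group was 219.9 CPM per kb in AB1 IPL, 200.3 in AB1 SC, 296 in AE17 IPL and 480.2 in AE17 SC tumors. The 4 TIMPs summed to 256, 283, 519 and 587 CPM per kb in the same order, and the 15 ADAMTS proteases to 69.9, 49.4, 72.0 and 71.4. Mmp14, a membrane-bound MMP that activates the proenzyme of Mmp2, was the top MMP in 3 groups and Mmp2 in AE17 SC tumors, while Timp1 was the top TIMP in all 4.

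**Figure D1:**
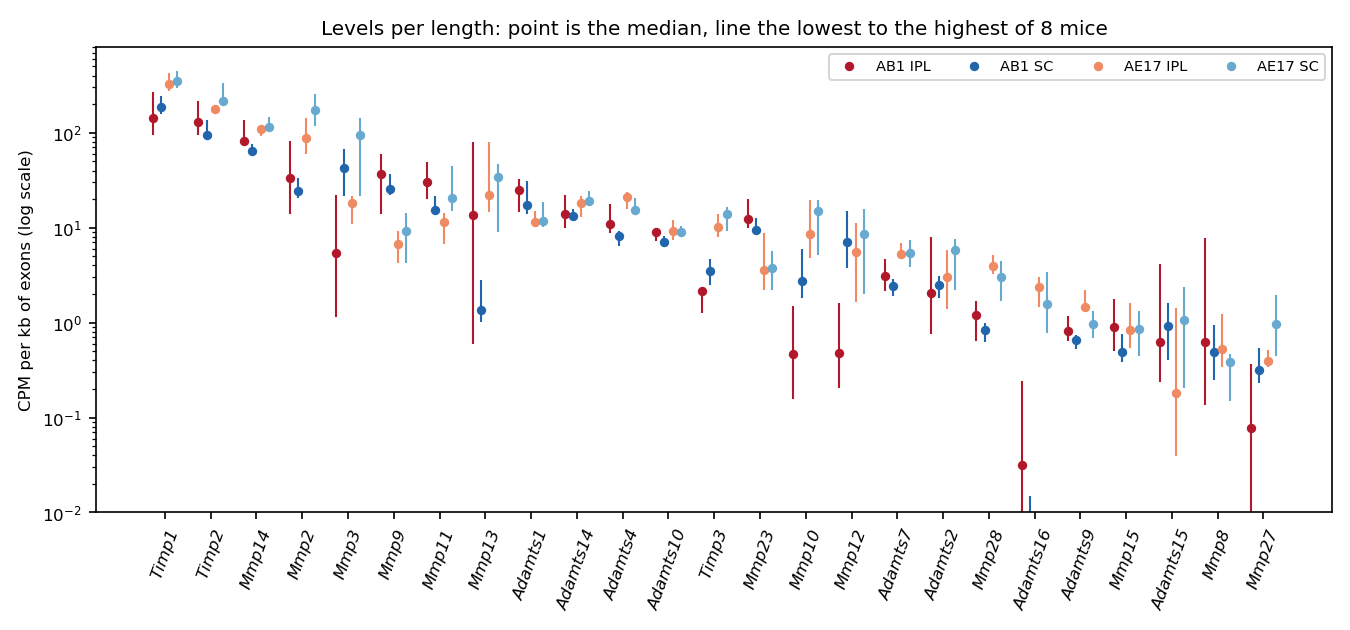
Levels of the 25 highest members in CPM per kb of exon (log scale), with a point at the median and a line from the lowest to the highest of 8 mice in each of the 4 groups; values under 0.01 are not drawn. Timp1, Timp2 and Mmp14 stand at the left with medians above 60 in every group, and the AB1 IPL line lies below the AB1 SC line for Mmp10 and Mmp12 and spans it for Mmp13.

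In AB1 tumors 24 members had enough counts to be tested between the sites with edgeR's quasi-likelihood test, with Benjamini-Hochberg adjustment over all genes tested. Of these, 9 were higher in IPL tumors and 5 lower, 14 in all. Among all 14645 genes tested, 12.3% were higher, 10.7% lower and 23% changed. Of the 14, the 5 that fell were the stromelysins Mmp3 and Mmp10, the macrophage elastase Mmp12, Mmp27 and the inhibitor Timp3. The 9 that rose were the collagenase Mmp13, Mmp11, the membrane-bound Mmp14 and Mmp15, Mmp23, Adamts4, Adamts7, Adamts9 and Adamts10. Without edgeR's filter on low counts, 38 members could be fitted. DESeq2 then called 21 of the 35 with an adjusted p (16 higher, 5 lower), beside 21.3% of all genes (12.3% higher, 8.99% lower), and edgeR called 20 of 38 (15 higher, 5 lower), beside 13.5% (7.99% higher, 5.55% lower), the 14 among them in both. Both added Mmp16, Adamts3, Adamts8, Adamts16, Adamts17 and Adamts20, and DESeq2 also Timp2. Without AB1 SC tumor 5, or without tumor 7, the count of 14 was 9, beside 2877 and 2986 genes in all in place of 3374. With the lane as a covariate the count was 4 (Mmp3, Mmp10, Mmp12 and Timp3), beside 386 of 14645 genes in all. Within lane 3 it was 3 (Mmp10, Mmp12 and Timp3), beside 169 of 15993 genes. Markers of host tissue were higher in the same IPL tumors, 7 of 8 for skeletal muscle, 2 of 4 for adipocytes and 2 of 3 for cardiac muscle, the third being lower. With scores of skeletal muscle, cardiac muscle, adipocyte and lung epithelium markers as covariates, 5 of the 14 passed (Mmp3, Mmp10, Mmp12 and Timp3 lower, Adamts9 higher), beside 815 genes in all, and Mmp11, Mmp13, Mmp14, Mmp15, Mmp23, Mmp27, Adamts4, Adamts7 and Adamts10 did not. The median log2 fold change was 0.37 over the 24 members and -0.002 over all genes tested.

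In AE17 tumors 28 members were tested, and 6 passed the threshold. Mmp3, Mmp27, Mmp11, Mmp2 and Timp2 were lower in IPL tumors and Adamts9 was higher, so 5 fell and 1 rose. Among all 14668 genes tested, 3.13% were lower, 2.6% higher and 5.73% changed, and the 840 genes behind the last share ranged from 316 to 2066 with 1 mouse left out, while 6 to 9 members passed. With the lane as a covariate edgeR called 0 of the 6, beside 1 of 14668 genes in all. Within lane 1 it also called 0, beside 14 of 15375 genes. These fits called hardly any gene, so the 0 says nothing particular to the members. In them, 7 and 8 members had an unadjusted p under 0.05. DESeq2 without the lane called 8 (3 higher, 5 lower), adding Adamts8 and Mmp16, beside 9.72% of all genes (4.82% higher, 4.9% lower). EdgeR without the filter called 7 (2 higher, 5 lower), adding Adamts8, beside 1.93% of all genes (0.763% higher, 1.17% lower). Of the host tissue markers, 2 of 3 for cardiac muscle were higher in AE17 IPL tumors, Myl4 (log2 fold change 2.05) and Tnnt2 (1.49). None passed of 8 for skeletal muscle and 4 for adipocytes. With the tissue marker scores as covariates edgeR called 0 of the 6, beside 2 of 14668 genes. In that fit 11 members had an unadjusted p under 0.05. The median log2 fold change was -0.12 over the 28 members and 0.004 over all genes tested. Both models had lower Mmp3 and Mmp27 and higher Adamts9 in IPL tumors, and Mmp11 moved in opposite directions.

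**Figure D2:**
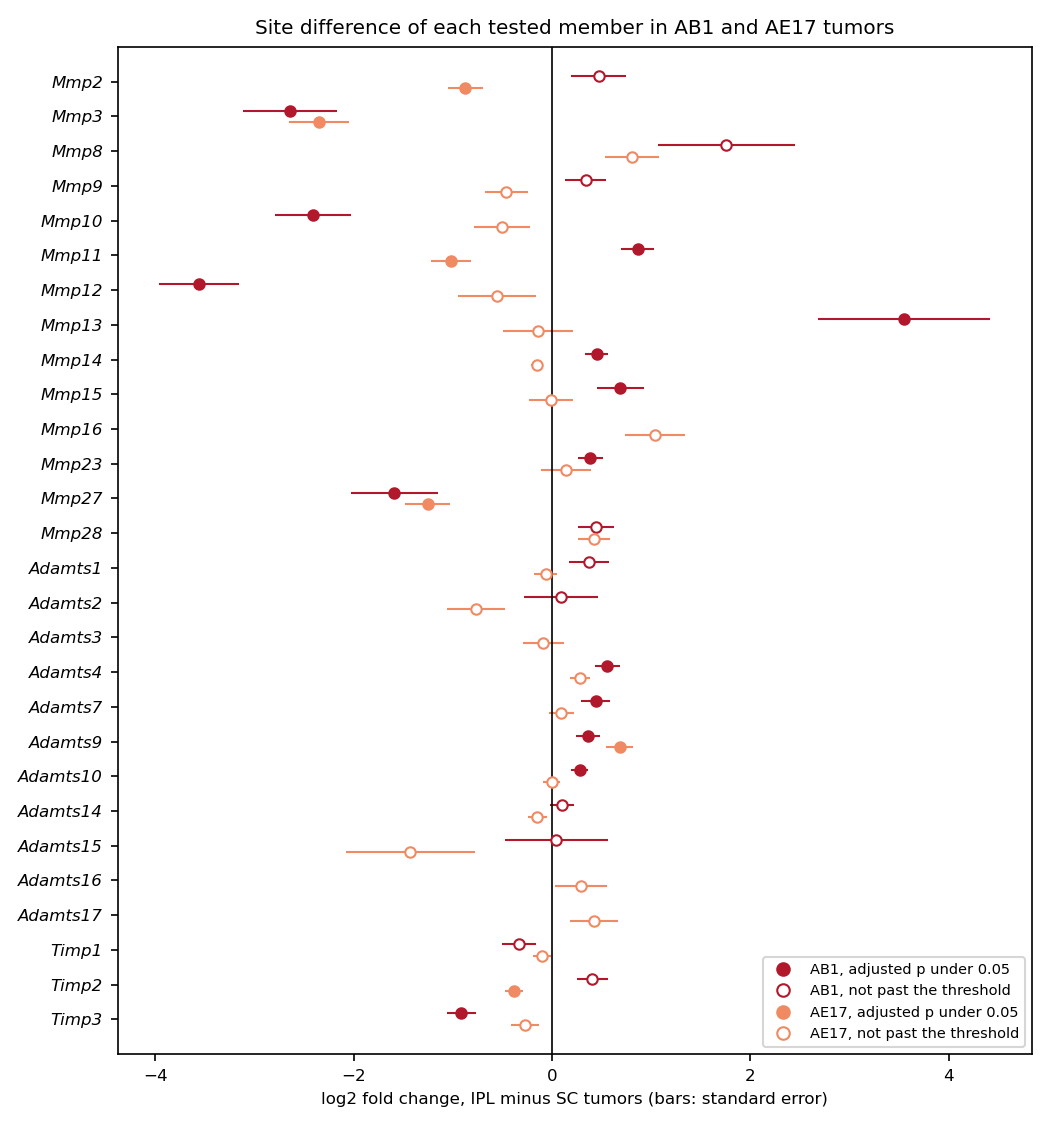
Log2 fold change of each tested member, IPL minus SC tumors, with its standard error (horizontal axis), in AB1 and AE17 tumors of 8 mice per group; filled points have an adjusted p under 0.05. Mmp3 and Mmp27 lie on the left in both models, Mmp12 and Mmp10 pass the threshold in AB1, and Mmp11 lies on opposite sides of 0.

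Mmp3, or stromelysin-1, cuts proteoglycans, laminin and fibronectin and activates other MMPs. In AB1 its level ran from 2.07 through a median of 9.65 to 39.7 CPM in IPL tumors, and from 38.5 through 76.4 to 121 CPM in SC tumors. Only AB1 IPL tumor 2, at 39.7 CPM, reached into the SC range. The log2 fold change was -2.64 ± 0.47 (SE, adjusted p = 8.25e-04 by edgeR). In AE17 it ran from 19.5 through 32.5 to 38.6 CPM in IPL tumors and from 38.7 through 172 to 258 CPM in SC tumors. The groups did not overlap, though AE17 SC tumor 8 lay just above the highest IPL tumor. The log2 fold change was -2.35 ± 0.30 (adjusted p = 0.00258 by edgeR), and the site difference of Mmp3 was not called different between the models. Within 1 lane the log2 fold change of Mmp3 was -3.12 in AB1 (edgeR adjusted p = 0.0746, 8 IPL against 2 SC mice) and -2.53 in AE17 (adjusted p = 0.121, 3 against 8), so that the size was kept and the call was not.

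Mmp10, or stromelysin-2, lies near Mmp3 in the cluster and has a similar range of substrates. In AB1 it was between 0.272 and 2.59 CPM in IPL tumors (median 0.811) and between 3.09 and 10.3 CPM in SC tumors (median 4.70). All 8 IPL tumors lay below all SC tumors, with a log2 fold change of -2.41 ± 0.38 (edgeR adjusted p = 2.83e-04). Within lane 3 the log2 fold change of Mmp10 was -2.98 (adjusted p = 0.0378 by edgeR). In AE17 it was between 8.29 and 33.7 CPM in IPL tumors (median 14.6) and between 8.89 and 33.6 CPM in SC tumors (median 25.7), and these groups overlapped. The interaction of model and site, the AE17 site difference minus that of AB1, was 1.89 on the log2 scale for Mmp10 (adjusted p = 0.00598 by edgeR).

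Mmp12, the elastase of macrophages, showed the largest fall of any member. In AB1 IPL tumors it ran from 1.47 through a median of 3.45 to 11.5 CPM, and in AB1 SC tumors from 27.4 through 51.6 to 108 CPM. The groups were separate, with a log2 fold change of -3.56 ± 0.40 (edgeR adjusted p = 2.07e-05) and of -3.57 within lane 3 (adjusted p = 0.0175). Of 7 macrophage markers tested, 3 fell (C1qa, Cd68 and Mrc1, with log2 fold changes of -0.44, -0.33 and -0.94), and the summed markers ran from 1607 to 3191 CPM in AB1 IPL and from 2250 to 3337 CPM in AB1 SC tumors. The part of macrophage number in the Mmp12 difference was not tested. In AE17 Mmp12 was between 11.8 and 81.5 CPM in IPL tumors (median 40.2) and between 14.4 and 112 CPM in SC tumors (median 62.1), with overlapping groups, and the interaction was 2.99 (edgeR adjusted p = 7.31e-04). Exons of Mmp12 overlap those of Mmp1b on the opposite strand, and whether the counting used strand is not given in the sources used here.

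Mmp27, a little studied MMP, was near the limit of detection. Its level in AB1 was between 0 and 0.808 CPM in IPL tumors (median 0.172) and between 0.507 and 1.19 CPM in SC tumors (median 0.693), and 7 of the 8 IPL tumors lay below every SC tumor. In AE17 it was between 0.762 and 1.14 CPM in IPL tumors (median 0.881) and between 0.975 and 4.34 CPM in SC tumors (median 2.16), and 7 of the 8 SC tumors lay above every IPL tumor. The log2 fold changes of Mmp27 were -1.59 ± 0.44 in AB1 (adjusted p = 0.0141 by edgeR) and -1.26 ± 0.23 in AE17 (adjusted p = 0.00909). Within 1 lane they were -1.48 and -1.27, with edgeR adjusted p of 0.524 and 0.243.

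**Figure D3:**
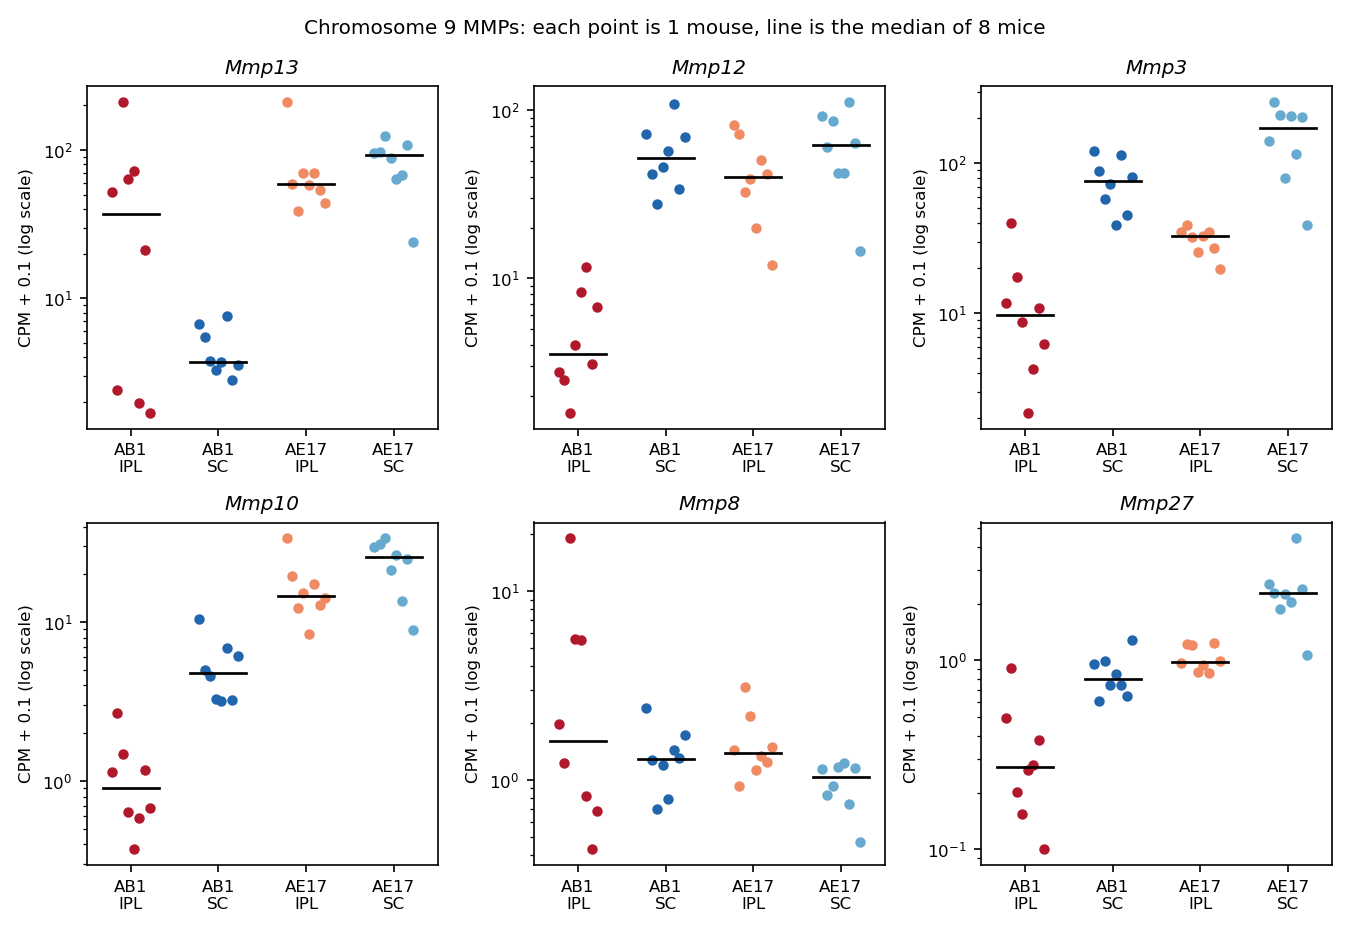
CPM + 0.1 (log scale) of 6 members of the chromosome 9 cluster in each mouse, with a line at the median of 8 mice, for both sites of the AB1 and AE17 models. All AB1 IPL points of Mmp12 and Mmp10 lie below all AB1 SC points, and those of Mmp13 lie on both sides of the AB1 SC points.

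Mmp13, the main collagenase of mice, split the AB1 IPL tumors. In mice 1 to 8 of that group its level was 52.2, 2.32, 212, 63.8, 72.5, 1.87, 21.1 and 1.58 CPM, while AB1 SC tumors lay between 2.72 and 7.47 CPM (median 3.63). Thus 5 of the 8 IPL tumors were above every SC tumor and the other 3 were below every SC tumor. The log2 fold change of the group was 3.55 ± 0.87 (edgeR adjusted p = 0.00753). In the same 8 IPL tumors the summed skeletal muscle markers, among them Ckm and Myh4, were 3062, 111, 4509, 4480, 1497, 1072, 2807 and 530.4 CPM, beside 53.8 to 519 CPM in AB1 SC tumors. The 5 tumors with high Mmp13 held the 5 highest muscle sums. The same 5 tumors (1, 3, 4, 5 and 7) held 38, 107, 246, 52 and 21 counts of Acan, which encodes the core protein of the main cartilage proteoglycan, and tumors 2, 6 and 8 held 1, 0 and 0, a division noticed after the values were seen. The part of cartilage in the Mmp13 difference was not tested. With scores of skeletal muscle, cardiac muscle, adipocyte and lung epithelium markers as covariates, the log2 fold change of Mmp13 was -1.10 (adjusted p = 0.621 by edgeR), and within lane 3 it was 3.11 (adjusted p = 0.546). In AE17 Mmp13 was high at both sites, between 38.7 and 212 CPM in IPL tumors (median 58.7) and between 23.9 and 124 CPM in SC tumors (median 92.1), and the groups overlapped. The interaction was -3.70 (edgeR adjusted p = 0.00558).

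Mmp8, the collagenase of neutrophils, did not pass the threshold in either model. In AB1 it was between 0.328 and 18.97 CPM in IPL tumors (median 1.51) and between 0.598 and 2.31 CPM in SC tumors (median 1.19), with a log2 fold change of 1.76 ± 0.69 (edgeR adjusted p = 0.0767). The 3 AB1 IPL tumors with the most Mmp8 (18.97, 5.49 and 5.38 CPM) were those with the highest neutrophil sums (672, 441 and 181 CPM), beside 45.4 to 88.7 CPM in AB1 SC tumors. The neutrophil markers did not move one way in AB1: of 5 tested, S100a8, S100a9 and Ltf rose (log2 fold changes 3.81, 3.97 and 5.40), Csf3r fell (-0.80, edgeR adjusted p = 0.0154) and Cxcr2 was at -0.60 (adjusted p = 0.512). In AE17 the log2 fold change of Mmp8 was 0.81 (adjusted p = 0.0836 by edgeR). The other members of the cluster were hardly detected: Mmp1a, Mmp1b, Mmp7 and Mmp20 were below edgeR's filter in every comparison, and neither DESeq2 nor edgeR without the filter called them between the sites.

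**Figure D4:**
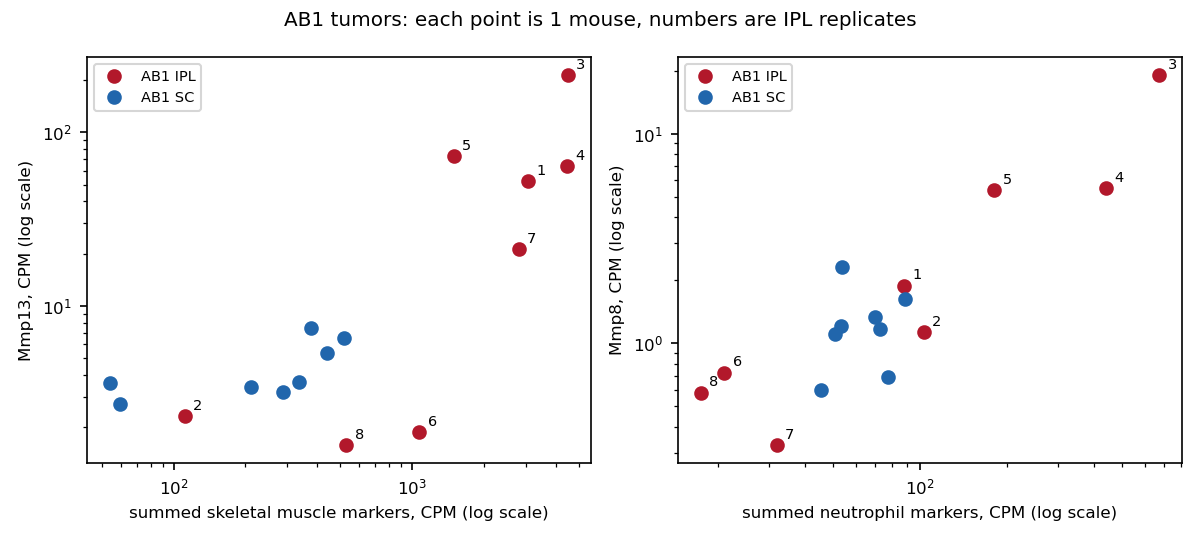
Level of Mmp13 against summed skeletal muscle markers (left) and of Mmp8 against summed neutrophil markers (right) in AB1 tumors, all in CPM on log scales; each point is 1 mouse and numbers are AB1 IPL replicates. IPL tumors 1, 3, 4, 5 and 7 hold the most Mmp13 and the highest muscle sums, and tumors 3, 4 and 5 the most Mmp8 and the highest neutrophil sums.

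Mmp11, or stromelysin-3, is made by fibroblasts around carcinomas and is cut to its active form inside the cell. It ran from 55.7 through a median of 84.6 to 137 CPM in AB1 IPL tumors and from 40.3 through 42.7 to 60.0 CPM in AB1 SC tumors, and 6 of the 8 IPL tumors were above every SC tumor. In AE17 it ran from 18.6 through 32.3 to 39.3 CPM in IPL tumors and from 41.6 through 57.2 to 125 CPM in SC tumors, with every IPL tumor below every SC tumor. The log2 fold changes were 0.86 ± 0.17 in AB1 (edgeR adjusted p = 0.00121) and -1.02 ± 0.20 in AE17 (adjusted p = 0.0139), and the interaction of Mmp11 was -1.90 (adjusted p = 3.98e-05). Within 1 lane they were 0.96 and -0.98 (edgeR adjusted p = 0.236 and 0.249). With the lane as a covariate the interaction of Mmp11 was -2.0 and was the only one among the members that passed (edgeR adjusted p = 0.0315). Exons of Mmp11 overlap Chchd10 on the opposite strand.

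Markers of fibroblasts and of pericytes and smooth muscle were set beside Mmp11. In AB1, 6 of 8 rose in IPL tumors, with log2 fold changes of 1.12 for Col1a1 and 1.01 for Fap, and the sums ran from 13429 to 35696 CPM in IPL and from 11233 to 14812 CPM in SC tumors. In AE17 0 of the 8 passed the threshold by edgeR (3 had an unadjusted p under 0.05, and DESeq2 called 1, Pdgfra), and the sums ran from 14589 to 27389 CPM in IPL and from 16375 to 26114 CPM in SC tumors. Of 3 pericyte and smooth muscle markers tested, Cspg4 and Pdgfrb rose in AB1 at the IPL site, by 1.67 and 0.49 on the log2 scale, and Cspg4 fell in AE17 IPL tumors (-2.23, edgeR adjusted p = 0.0193), where Pdgfrb was at -0.35 (adjusted p = 0.0594 by edgeR) and was called by DESeq2. The median sum of this list was 209 CPM in AB1 IPL, 151 in AB1 SC, 221 in AE17 IPL and 369 in AE17 SC tumors. The part of fibroblast or pericyte number in the differences of Mmp11 and of the other members was not tested.

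The gelatinases Mmp2 and Mmp9 cut denatured collagen and basement membrane collagen. Mmp2 was between 46.6 and 278 CPM in AB1 IPL tumors (median 112) and between 69.8 and 113 CPM in AB1 SC tumors (median 82.9), and did not pass the threshold there (log2 fold change 0.47 ± 0.28, edgeR adjusted p = 0.245). In AE17 it was between 200.8 and 479.9 CPM in IPL tumors (median 299) and between 402 and 865 CPM in SC tumors (median 582). There 7 of the 8 IPL tumors lay below every SC tumor, with a log2 fold change of -0.88 ± 0.18 (edgeR adjusted p = 0.0144) and -0.99 within lane 1 (adjusted p = 0.181). The interaction of Mmp2 was -1.36 (adjusted p = 0.00547 by edgeR). Mmp9, a gelatinase of neutrophils and macrophages, overlapped between the sites in both models. It was between 49.1 and 212 CPM in AB1 IPL (median 129.8), 77.8 and 129 in AB1 SC (median 91.1), 14.9 and 32.8 in AE17 IPL (median 23.8) and 15.2 and 50.4 in AE17 SC tumors (median 32.6).

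Among the membrane-bound enzymes, Mmp14 ran from 432 through a median of 492 to 803 CPM in AB1 IPL tumors and from 348 through 381 to 452 CPM in AB1 SC tumors. Its log2 fold change was 0.45 ± 0.12 (edgeR adjusted p = 0.00942), with 6 of the 8 IPL tumors above every SC tumor. In AE17 Mmp14 ran from 551 through 653 to 694 CPM in IPL and from 661 through 687 to 869.8 CPM in SC tumors and did not pass (log2 fold change -0.15, edgeR adjusted p = 0.135), and the interaction was -0.62 (adjusted p = 0.00154). Mmp15 was between 2.71 and 9.56 CPM in AB1 IPL (median 4.89), 2.09 and 4.14 in AB1 SC (median 2.67), 2.94 and 8.65 in AE17 IPL (median 4.47) and 2.42 and 7.16 in AE17 SC tumors (median 4.62). It rose by a log2 fold change of 0.69 in AB1 (edgeR adjusted p = 0.0453). Mmp16, which like Mmp14 can activate Mmp2, was nearly absent from AB1, with 0 to 1 counts per SC tumor and 2 to 10 counts per IPL tumor. In AE17 Mmp16 was between 1.35 and 4.54 CPM in IPL tumors (median 3.25) and between 0.410 and 2.73 CPM in SC tumors (median 1.58), with a log2 fold change of 1.03 ± 0.30 (adjusted p = 0.0539 by edgeR).

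Mmp23, an unusual enzyme with a membrane anchor at its start, was the only other MMP that edgeR called in AB1 after its filter. It was between 23.1 and 46.5 CPM in AB1 IPL (median 29.1) and between 19.6 and 29.6 CPM in AB1 SC tumors (median 22.3), with a log2 fold change of 0.39 (edgeR adjusted p = 0.0387). In AE17 it was between 5.18 and 20.5 CPM in IPL (median 8.29) and 5.11 and 13.3 CPM in SC tumors (median 8.72). Mmp28, or epilysin, did not pass between the sites, with log2 fold changes of 0.44 and 0.43 (edgeR adjusted p = 0.0861 in AB1 and 0.116 in AE17). Mmp17, Mmp21 and Mmp24 were below edgeR's filter in every comparison, and neither DESeq2 nor edgeR without the filter called them between the sites. None of Mmp11, Mmp14, Mmp15 and Mmp23 passed within lane 3 of AB1, where their log2 fold changes were 0.96, 0.37, 0.22 and 0.40 (edgeR adjusted p = 0.236, 0.541, 0.864 and 0.529).

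The 4 ADAMTS proteases that rose in AB1 IPL tumors were Adamts4, Adamts7, Adamts9 and Adamts10. Adamts4, an aggrecanase, ran from 42.6 through a median of 52.5 to 84.5 CPM in AB1 IPL and from 31.2 through 38.9 to 44.7 CPM in AB1 SC tumors, and 7 of the 8 IPL tumors were above every SC tumor. Its log2 fold change was 0.56 ± 0.12 (edgeR adjusted p = 0.0035). In AE17 it ran from 75.7 through 100.1 to 115 CPM in IPL and from 64.8 through 74.5 to 98.8 CPM in SC tumors (log2 fold change 0.28, adjusted p = 0.103 by edgeR). Adamts9, which cuts versican and aggrecan, was called in both models. It was between 9.73 and 17.5 CPM in AB1 IPL (median 12.3), 8.01 and 11.1 in AB1 SC (median 9.95), 19.4 and 33.2 in AE17 IPL (median 22.1) and 10.4 and 20.2 in AE17 SC tumors (median 14.5). The log2 fold change of Adamts9 was 0.36 ± 0.12 in AB1 (edgeR adjusted p = 0.0396) and 0.68 ± 0.14 in AE17 (adjusted p = 0.0139), and in AE17 7 of the 8 IPL tumors were above every SC tumor.

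Adamts7, which cuts cartilage oligomeric matrix protein, was between 13.6 and 29.7 CPM in AB1 IPL (median 19.5) and between 11.8 and 18 CPM in AB1 SC tumors (median 15.4), with a log2 fold change of 0.44 (edgeR adjusted p = 0.035). In AE17 it was between 29.1 and 43.0 CPM in IPL (median 33.1) and 24.5 and 46.1 CPM in SC tumors (median 34.2). Adamts10, which binds fibrillin microfibrils, was between 59.3 and 82.4 CPM in AB1 IPL (median 74.7) and 51.1 and 66.9 CPM in AB1 SC tumors (median 57.8), with a log2 fold change of 0.28 (adjusted p = 0.0235 by edgeR). In AE17 it was between 61.1 and 98.9 CPM in IPL (median 75.4) and 69.4 and 86.2 CPM in SC tumors (median 74.7). Within 1 lane the log2 fold changes of Adamts4, Adamts7, Adamts9 and Adamts10 in AB1 were 0.40, 0.18, 0.19 and 0.06 (edgeR adjusted p = 0.51, 0.804, 0.80 and 0.896), and that of Adamts9 in AE17 was 0.48 (adjusted p = 0.279). With each of the 16 AB1 mice left out in turn, Adamts9 and Mmp15 kept their calls in 5 of 16 fits, Mmp23 in 6, Adamts7 in 9, Adamts10 in 13 and Adamts4 in 16.

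Adamts1, which cuts aggrecan and versican, and Adamts14, which trims procollagens, had the highest levels per length of the ADAMTS members averaged over the 4 groups, though Adamts4 led in AE17 IPL tumors (20.8 CPM per kb, beside 11.4 for Adamts1), and did not pass between the sites in either model. Adamts1 was between 78.2 and 172 CPM in AB1 IPL (median 133.6), 73.1 and 163 in AB1 SC (median 91.2), 55.7 and 79.8 in AE17 IPL (median 60.6) and 53.6 and 98.9 in AE17 SC tumors (median 61.7). Adamts14 was between 51.8 and 116 CPM in AB1 IPL (median 71.6), 61.5 and 81.2 in AB1 SC (median 68.3), 67.7 and 113 in AE17 IPL (median 93.6) and 89.2 and 127 in AE17 SC tumors (median 99.95). Adamts2, the main procollagen proteinase of skin, and Adamts15 did not pass either, with log2 fold changes of 0.09 and 0.04 in AB1 (edgeR adjusted p = 0.888 and 0.963) and of -0.77 and -1.43 in AE17 (edgeR adjusted p = 0.118 and 0.183). Adamts13, the protease of von Willebrand factor, and Adamts18 were below edgeR's filter in every comparison, and were not called between the sites by DESeq2 or by edgeR without the filter.

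Adamts8 and Adamts20 passed edgeR's filter only in the fit of all 32 mice, where neither interaction passed. Adamts20 had 24, 7, 30, 10, 9, 6, 27 and 8 counts in AB1 IPL tumors 1 to 8 and 0 to 6 counts per AB1 SC tumor, and in CPM every IPL tumor was above every SC tumor (0.362 to 1.53 against 0 to 0.359 CPM). Adamts8 had 25, 12, 21, 34, 10, 2, 23 and 6 counts in the same 8 IPL tumors and 1 to 5 per AB1 SC tumor, and 7 of the 8 IPL tumors were above every SC tumor. These levels were near the limit of detection, and the groups of Adamts20 were separated by a narrow margin. In AB1 the log2 fold change by DESeq2 was 2.16 for Adamts20 and 2.29 for Adamts8 (adjusted p = 4.21e-04 and 1.39e-04), and by edgeR without the filter 2.14 and 2.26 (adjusted p = 0.0043 and 0.00171). In AE17 Adamts8 was between 0.349 and 1.44 CPM in IPL (median 0.802) and between 0.0588 and 0.546 CPM in SC tumors (median 0.330), with 6 of the 8 IPL tumors above every SC tumor and a log2 fold change of 1.48 by DESeq2 (adjusted p = 0.00683) and 1.45 by edgeR without the filter (adjusted p = 0.0454). Adamts20 overlapped between the sites in AE17. The other low members called in AB1 by both were Mmp16, Adamts3, Adamts16 and Adamts17, with log2 fold changes by DESeq2 of 3.89, 3.14, 3.93 and 2.96 against AB1 SC tumors with at most 5 counts. Within lane 3 of AB1 these low members did not pass, with log2 fold changes of 2.22 for Adamts20, 2.60 for Adamts8, 1.97 for Adamts3, 2.32 for Adamts16 and 1.51 for Adamts17 (edgeR adjusted p = 0.272, 0.275, 0.549, 0.591 and 0.538), and Mmp16 was below the filter. Within lane 1 of AE17 Adamts8 was at 1.60 (edgeR adjusted p = 0.216).

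Of the inhibitors, Timp3, which is bound to the matrix and blocks ADAMTS proteases as well as MMPs, fell in AB1 IPL tumors. It ran from 10.2 through a median of 17.4 to 19.4 CPM in AB1 IPL and from 20.2 through 28.4 to 38.4 CPM in AB1 SC tumors, without overlap. The log2 fold change was -0.92 ± 0.15 (edgeR adjusted p = 3.07e-04), and -1.31 within lane 3 (adjusted p = 0.0172). In AE17 Timp3 was between 65.7 and 112 CPM in IPL (median 83.6) and 74.9 and 135 CPM in SC tumors (median 112), with overlapping groups (log2 fold change -0.28, edgeR adjusted p = 0.226). The interaction of Timp3 was 0.62 (adjusted p = 0.0299 by edgeR). Timp3 lies within Syn3 on the opposite strand.

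Timp2, which both inhibits MMPs and takes part in the activation of Mmp2 by Mmp14, ran from 614 through 694 to 736.7 CPM in AE17 IPL and from 774 through 843 to 1300 CPM in AE17 SC tumors, without overlap. Its log2 fold change there was -0.39 ± 0.09 (edgeR adjusted p = 0.0248), and -0.40 within lane 1 (adjusted p = 0.287). In AB1 it ran from 365 through 507 to 848 CPM in IPL and from 345 through 369.8 to 536 CPM in SC tumors, and did not pass (log2 fold change 0.41, adjusted p = 0.0696 by edgeR). The interaction of Timp2 was -0.81 (edgeR adjusted p = 0.00264). Timp1, a soluble inhibitor induced in wounds and tumors, did not pass in either model. It was between 85.0 and 237 CPM in AB1 IPL (median 127), 138 and 215 in AB1 SC (median 165), 247 and 378 in AE17 IPL (median 289) and 265 and 394 in AE17 SC tumors (median 312). Timp4, an inhibitor known from heart and fat, was below edgeR's filter and not called between the sites without it or by DESeq2, with medians of 0.074 CPM in AB1 IPL, 0 in AB1 SC, 0.0888 in AE17 IPL and 0.119 in AE17 SC tumors and a highest value of 1.32 CPM.

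**Figure D5:**
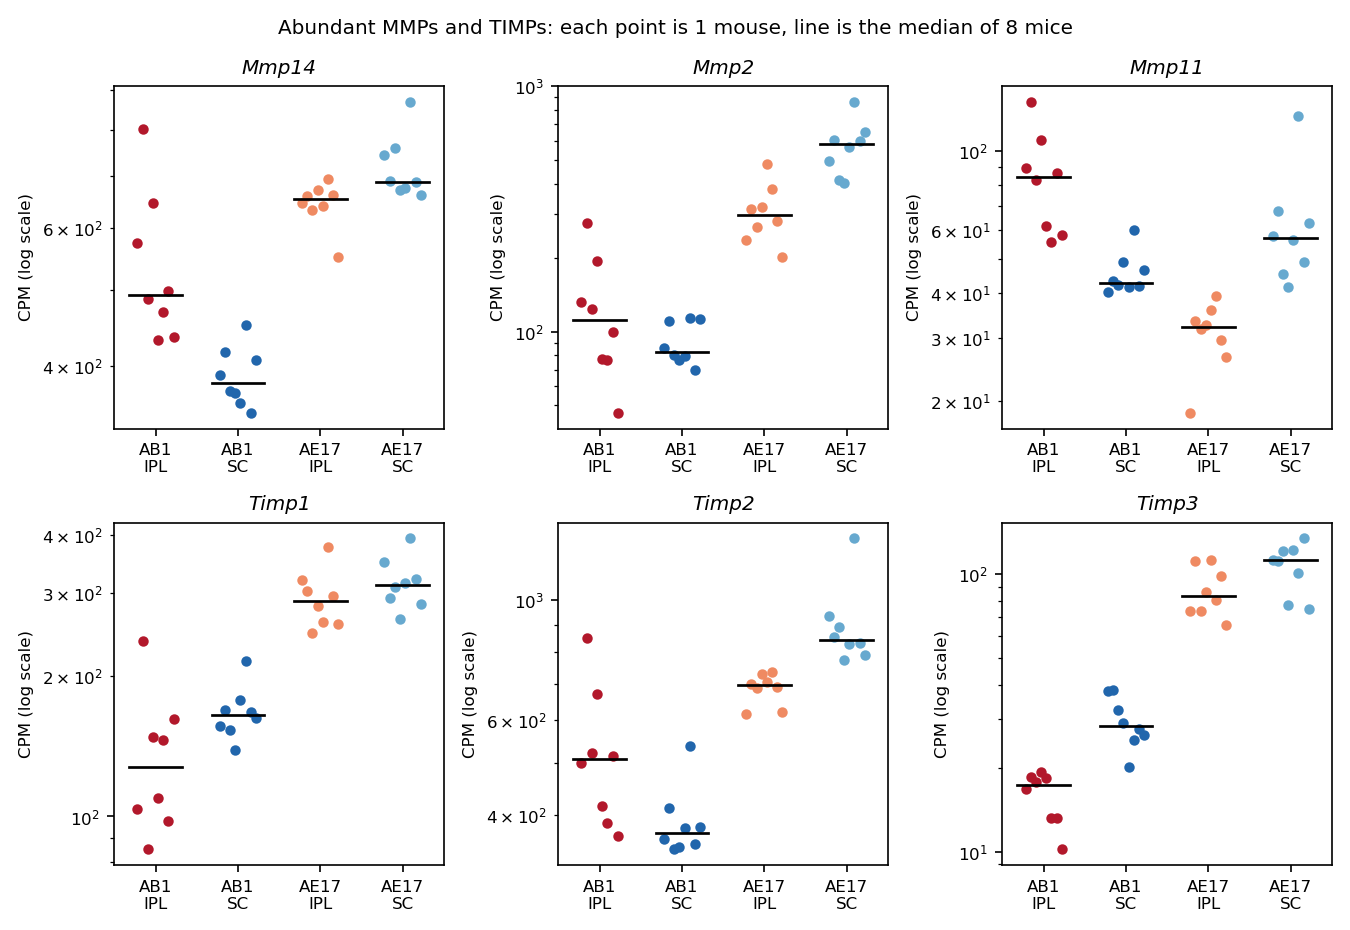
CPM (log scale) of Mmp14, Mmp2, Mmp11, Timp1, Timp2 and Timp3 in each mouse, with a line at the median of 8 mice, for the 4 groups. AE17 IPL points of Mmp11 and Timp2 lie below all AE17 SC points, and AB1 IPL points of Timp3 below all AB1 SC points.

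The interaction was tested for 30 members in 1 fit of all 32 mice, and 12 passed. It was negative for 9 (Mmp2, Mmp11, Mmp13, Mmp14, Mmp16, Adamts3, Adamts16, Adamts17 and Timp2) and positive for 3 (Mmp10, Mmp12 and Timp3). Among all 15681 genes tested, 20.5% passed, 11.9% with a negative and 8.62% with a positive sign. With the lane as a covariate 1 of the 12 passed, Mmp11, beside 117 genes in all. For Mmp2, Mmp10, Mmp12, Mmp13, Mmp14, Timp2 and Timp3 the adjusted p by edgeR was then 0.186, 0.0793, 0.0888, 0.206, 0.127, 0.13 and 0.106. For Adamts3, a procollagen proteinase, and for Adamts16 and Adamts17 the sign rests on AB1 tumors at the limit of detection. Adamts16 had 0 to 2 counts per AB1 SC tumor and 0 to 31 counts per AB1 IPL tumor, against 9.96 to 20.7 CPM in AE17 IPL (median 16.2) and 5.28 to 23.1 CPM in AE17 SC tumors (median 10.7). Adamts3 was between 0 and 0.862 CPM in AB1 IPL (median 0.487), 0 and 0.107 in AB1 SC (median 0.0595), 0.570 and 1.36 in AE17 IPL (median 0.892) and 0.670 and 1.62 in AE17 SC tumors (median 1.02). Adamts17 was between 0.121 and 1.56 CPM in AB1 IPL (median 0.504), 0 and 0.254 in AB1 SC (median 0.0582), 0.756 and 1.62 in AE17 IPL (median 1.16) and 0.487 and 1.41 in AE17 SC tumors (median 0.943).

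Between the models most members were higher in AE17. In SC tumors 23 of the 30 tested were higher in AE17 and 3 lower, 26 in all, beside 29.7% higher, 28.6% lower and 58.3% changed among all genes. In IPL tumors 18 were higher and 5 lower, 23 in all, beside 31.8%, 31.6% and 63.4%. Of the 30, 6 were below edgeR's filter in the fit of the AB1 mice. Of these 6, Adamts8 and Adamts20 were below it in the fit of the AE17 mice as well. Mmp16, Adamts3, Adamts16 and Adamts17 passed it there, and they were higher in AE17. Their part in the counts of 23 and 18 is therefore no separate evidence. Adamts20 is also among the 23. Mmp2 was higher in AE17 by a log2 fold change of 2.67 in SC and 1.3 in IPL tumors (edgeR adjusted p = 1.45e-10 and 2.65e-05), Timp3 by 1.87 and 2.49 (adjusted p = 1.95e-12 and 3.60e-15), and Mmp28 by 1.94 and 1.90. The share of all genes whose groups were separate was not counted, here or between the sites. Every AE17 tumor was above every AB1 tumor at the same site for Timp1, Timp3 and Mmp28. The same held for Mmp16 and Adamts16, but these passed the filter through AE17, so their separation is no separate evidence either. Mmp9 and Mmp23 were the reverse, with every AE17 tumor below every AB1 tumor at both sites and log2 fold changes of -1.57 and -2.39 for Mmp9 and -1.36 and -1.62 for Mmp23. Mmp13 was higher in AE17 by 4.22 in SC tumors (edgeR adjusted p = 9.94e-06) and by 0.53 in IPL tumors (adjusted p = 0.472). The models share no lane at the same site, and with the lane as a covariate 20 of the 26 calls in SC and 16 of the 23 in IPL tumors remained.

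Other genes of pericellular proteolysis were taken from lists. Beside the counts below, 12.3% of all genes tested were higher and 10.7% lower in AB1 IPL tumors. In AE17 IPL tumors these shares were 2.6% and 3.13%. Whether any list differed from these shares was not tested. Of 8 plasminogen system genes tested in AB1, 2 were higher in IPL tumors and 1 lower: the protease inhibitor Serpine2 (log2 fold change 1.01), the plasminogen activator Plat (0.72) and the plasminogen receptor Plgrkt (-0.44). Of 6 cathepsins, lysosomal and secreted proteases, 1 was higher and 4 lower, with 1.21 for the collagen-cutting Ctsk, -1.29 for Ctss, -0.65 for Ctsh and -0.35 for Ctsc. Of 9 other regulators, 3 were higher and 2 lower, among them Lcn2, which binds Mmp9 (3.96), the endocytic receptor Lrp1 (0.51), the inhibitor Tfpi2 (-1.34) and the matrix protein Thbs1 (0.45). Of 3 proprotein convertases, which remove MMP propeptides, Pcsk6 was higher (2.71). Of 8 ADAM sheddases Adam8 was lower (-0.41), and of 5 ADAMTS-like proteins, which lack the protease domain, Adamtsl2 was higher (1.42). In AE17 the ADAMTS-like Thsd4 was higher (1.70) and Adamtsl4 lower (-0.94) among 6 tested. By edgeR 0 of 6 cathepsins, 0 of 3 convertases and 0 of 8 ADAM sheddases passed in AE17, with 3, 1 and 1 at an unadjusted p under 0.05, and DESeq2 called 0 in each. Of the 9 other regulators edgeR also called 0, with 4 at an unadjusted p under 0.05, and DESeq2 called 2, Cd44 and Lcn2. Of the hyalectans, the proteoglycans that ADAMTS members cut, edgeR tested 1, Vcan or versican, which did not pass in either model (0.30 and -0.13). Acan, or aggrecan, was below edgeR's filter within each model and was called by DESeq2 in both. In the fit of all 32 mice edgeR tested Acan, with an interaction of -6.59 (adjusted p = 0.00373) and log2 fold changes of AE17 against AB1 of -2.09 in IPL and 4.50 in SC tumors (edgeR adjusted p = 0.00684 and 0.00957). It had 0 to 246 counts per AB1 IPL tumor and 0 to 1 per AB1 SC tumor, and 5 to 19 counts per AE17 IPL tumor and 3 to 8 per AE17 SC tumor. Within lane 3 all 16 pathway genes that edgeR called in AB1 kept their direction and 1 passed, Ctss (log2 fold change -1.26, edgeR adjusted p = 0.00688). Of the 29 marker genes called in AB1, all 29 kept their direction there and edgeR called 0, with 11 at an unadjusted p under 0.05. Within lane 1, Thsd4 and Adamtsl4 in AE17 were at 1.60 and -1.03 (edgeR adjusted p = 0.26 and 0.277), and Cspg4 at -2.46 (adjusted p = 0.239 by edgeR). DESeq2 was not run within a lane.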

How the data were processed

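Whole-tumor polyA RNA of 32 mice was sequenced as 50 bp single-end reads, 8 mice per group. The authors deposited whole-number counts per gene without normalization, made with bcl2fastq 1.8.4, FastQC, HISAT2 2.0.4 (versions as in the submitters' processing notes where given there) and SummerizeOverlaps; the strand setting is not given in the sources used here. The genome is named mm11, which is no public build, so coordinates were read from GENCODE M21 (GRCm38), whose identifiers matched 40 of 40 members and 39495 of 39676 genes without the version. Groups, replicate numbers and lanes came from sample titles and column names. 

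Counts were tested in R 4.3.3 with edgeR 4.0.16 (filterByExpr, TMM, robust quasi-likelihood F test, two-sided), within each model for the sites and in 1 fit of 32 mice for the interaction and the models, with Benjamini-Hochberg adjustment over all genes tested and a threshold of 0.05. Values after ± are standard errors, computed as the size of the log2 fold change divided by the square root of edgeR's F statistic. CPM used TMM factors over all mice. Alternatives were DESeq2 1.42.0, its size factors, no filter, a replicate block, the lane or tissue marker scores as covariates, 1 lane only, a log2 fold change of at least 1, and each mouse left out. Each mouse is a separate animal; the 112 pairs of libraries within groups had a chi-square of 5.92 to 148.0 per degree of freedom, above counting error, so none was a copy. The procedure was tested on simulated data. The members, marker lists and pathway lists were chosen with earlier results of these data known, and every member is named; values per group are given for those past the threshold between the sites or in the interaction, the TIMPs and the 10 highest per length. Mmp8, Mmp28, Adamts2, Adamts8, Adamts15 and Adamts20 fall outside this rule, chosen with their values in view. Of each pathway list at most 4 genes past the threshold, with the largest change, are named, and Vcan and Acan besides, Acan chosen with its values in view. The plots were drawn with matplotlib 3.10.9.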

Additional observations from a re-analysis of the deposited data

Results flagged for a closer look

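Single mice that stood apart within their group of 8 on the log2(CPM + 0.1) scale were looked for among 100 combinations of a member and a group, and 10 were found. Chance gives about 1 in 20. Of the 10, 5 came from replicate 6 of an SC group. AB1 SC tumor 6 was the highest of its group for Adamts1 (163 CPM), Mmp23 (29.6 CPM) and Timp2 (536 CPM), and AE17 SC tumor 6 for Mmp11 (125 CPM) and Timp2 (1300 CPM). AE17 IPL tumor 1 was the highest for Mmp13 (212 CPM), and AE17 SC tumor 8 the lowest for Mmp13 (23.9 CPM). AE17 IPL tumor 8 was the lowest for Mmp14 (551 CPM). Timp4 was at 0.229 CPM in AB1 SC tumor 5 and at 1.32 CPM in AE17 IPL tumor 5, the latter with the highest adipocyte sum of its group (898 CPM, group median 33.3) and the highest cardiac muscle sum (239 CPM, group median 33.25). That tumor held 146 counts of Myl7 and 75 of Nppa, genes of the heart atrium, and the other 7 AE17 IPL tumors 0 or 1 of each. The part of adipose or cardiac tissue in the Timp4 value was not tested.

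The site difference was called different between the models for 12 members, by edgeR's interaction test. On the log2 scale the interaction was -3.70 for Mmp13, -1.90 for Mmp11, -1.36 for Mmp2, -0.62 for Mmp14, -2.60 for Mmp16, -0.81 for Timp2, -3.33 for Adamts16, -2.42 for Adamts17 and -3.07 for Adamts3. It was 2.99 for Mmp12, 1.89 for Mmp10 and 0.62 for Timp3. For Mmp16, Adamts3, Adamts16 and Adamts17 the fitted values depend on the prior count, since AB1 SC tumors were at or near 0 counts. With the lane as a covariate 1 of the 12 passed, that of Mmp11.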

How the results depend on the processing

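The lanes nearly follow the groups, so that lane and site can hardly be told apart, and depth limits the members under about 1 CPM. Between the sites, 14 members passed in AB1 and 6 in AE17. With the lane as a covariate these became 4 and 0, within 1 lane 3 and 0, with tissue marker scores 5 and 0, and with a log2 fold change of at least 1 they became 5 and 3. For the 3 counts of 0 in AE17 by edgeR, 7, 8 and 11 members had an unadjusted p under 0.05, and DESeq2 without these terms called 8. The 12 interactions became 1 with the lane. Mmp10, Mmp12 and Timp3 in AB1 kept their calls in the 7 other fits (DESeq2, its size factors, no filter, the block, the lane, the tissue scores and 1 lane) and without any single mouse, and Mmp3 in all but 1 lane only. Requiring a log2 fold change of at least 1, Timp3 (-0.92) was no longer called. The value of Mmp13 in AB1 reversed to -1.10 with tissue marker scores, and was the only one of the called members to do so; why was not tested. In AE17 all 6 called members kept their direction under the 7 alternatives. Leaving out 1 mouse gave 9 to 16 calls in AB1 (9 without AB1 SC tumor 5 or 7), 6 to 9 in AE17 and 11 to 14 interactions, and 24 to 26 and 23 to 25 members between the models in SC and IPL tumors. Over all genes the same fits gave 2877 to 3652 in AB1, 2722 to 3664 interactions, and 8862 to 9649 and 9686 to 10118 between the models. Over all genes in AE17, the 840 calls fell to between 316 and 509 without AE17 IPL tumor 2, 3, 4, 7 or 8 or AE17 SC tumor 2, 5, 6 or 7, and were 1263, 1546 and 2066 without AE17 IPL tumor 5, AE17 SC tumor 3 and AE17 SC tumor 1. Over all genes, DESeq2 called 4497 of 21160 with an adjusted p in AB1 and 1768 of 18185 in AE17, against 3374 and 840 by edgeR. By edgeR, the lane as a covariate left 386 genes in AB1, 1 in AE17, 117 interactions, and 5268 and 5008 between the models in SC and IPL tumors (of 3212, 9138 and 9940 for the last 3), tissue marker scores left 815 and 2, 1 lane 169 and 14, requiring a 1-unit log2 change 988 and 246, and no filter gave 550 in AE17.

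With the replicate number as a block 8 members passed in AB1, 7 in AE17 and 12 in the interaction, beside 2263, 661 and 2823 genes in all. Same-numbered IPL and SC mice did not deviate together (mean correlation -0.12 in AB1 and 0.07 in AE17, and 0 and 3 of 8 mice correlated best with their own number), so the numbers were not taken as pairs.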
